A study of Mus musculus with 4 samples.

Results

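The cytochrome P450 genes are the 92 of 21887 protein-coding RefSeq genes of the mouse whose symbol is Cyp followed by digits, a letter and digits, such as Cyp1a1 or Cyp3a11. Single genes were chosen by symbol, but the family itself was selected on peak counts already seen in the 0 h and 72 h lists, and its peaks were classed from the same lists. All contrasts with other genes are therefore descriptions and carry no test. Chromatin accessibility was measured by ATAC-seq, in which the Tn5 transposase cuts open chromatin, in organoids grown from jejunal crypts (proximal small intestine) of C57BL/6J mice. The 0 h organoids stayed in medium with mEGF, R-spondin, Noggin, CHIR99021 and valproic acid. Noggin binds and blocks BMPs, CHIR99021 inhibits the kinase GSK3 and so raises Wnt activity, and valproic acid inhibits histone deacetylases. The 72 h organoids were kept for 72 h without CHIR99021, valproic acid and Noggin, with mEGF and R-spondin retained and 100 ng/mL BMP2 added. BMP2 and the loss of the 3 other components therefore changed together and cannot be told apart. Each of the 4 time points (0, 24, 48 and 72 h) is 1 library, and those of 24 h and 48 h are not used here. Without replicates no difference can be set against a spread, and opening within cells and a change in the mix of cells cannot be told apart. The lists hold peak positions without heights or counts, so the depth is unknown and a peak in 1 library only is a difference in calling, not a measured fold.

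P450 enzymes are haem-containing monooxygenases, most of them in the endoplasmic reticulum, that receive electrons from P450 reductase and insert oxygen into lipophilic substrates. Members of families 1 to 3 oxidise drugs and dietary compounds, and enterocytes use them as a first barrier before the liver. Other members act on fatty acids, vitamin D, retinoic acid, bile acids and steroid hormones. Many mouse members lie in tandem clusters of close relatives, and their transcription is controlled by nuclear receptors and by HNF4 factors.

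Of the 92 genes, 58 (63.0%) had at least 1 peak at the 1e-05 threshold in 1 library or both, beside 69.7% of all protein-coding genes. A peak was given to the gene that holds its midpoint or lies nearest to it within 50 kb. The 0 h list gave 75 peaks at 43 of the genes and the 72 h list gave 128 peaks at 55, 1.71 times as many peaks, where all assigned peaks rose in number by a factor of 1.14. Of the 128 peaks at 72 h, 59 (46.1%, exact 95% binomial interval 37.2 to 55.1) were overlapped by no base of a 0 h peak, and of the 75 peaks at 0 h, 12 (16.0%, 8.55 to 26.3) were found at 0 h only. Among all assigned peaks these shares were 29.0% at 72 h and 19.7% at 0 h. Peaks of 1 cluster share their source, so these intervals, which cover counting error only, are too narrow.

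By gene, 32 members had a peak at 72 h only, 11 had a peak at 0 h only and 18 had none but shared peaks. Cyp2b10, Cyp2d26 and Cyp4b1 had both kinds. Over all 15263 genes with a peak, 39.8% had a peak at 72 h only and 29.7% a peak at 0 h only. At 15 members peaks were assigned at 72 h and none at 0 h, against 7.55% of all genes with a peak, and at 3 members (Cyp19a1, Cyp1a2 and Cyp2a22) the reverse held, against 6.95%. Among the 15, the peak of Cyp39a1 (an oxysterol hydroxylase of bile acid synthesis) is overlapped by a 0 h peak that was assigned to a neighbouring gene. The other 14 had peaks at 72 h only.

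**Figure D1:**
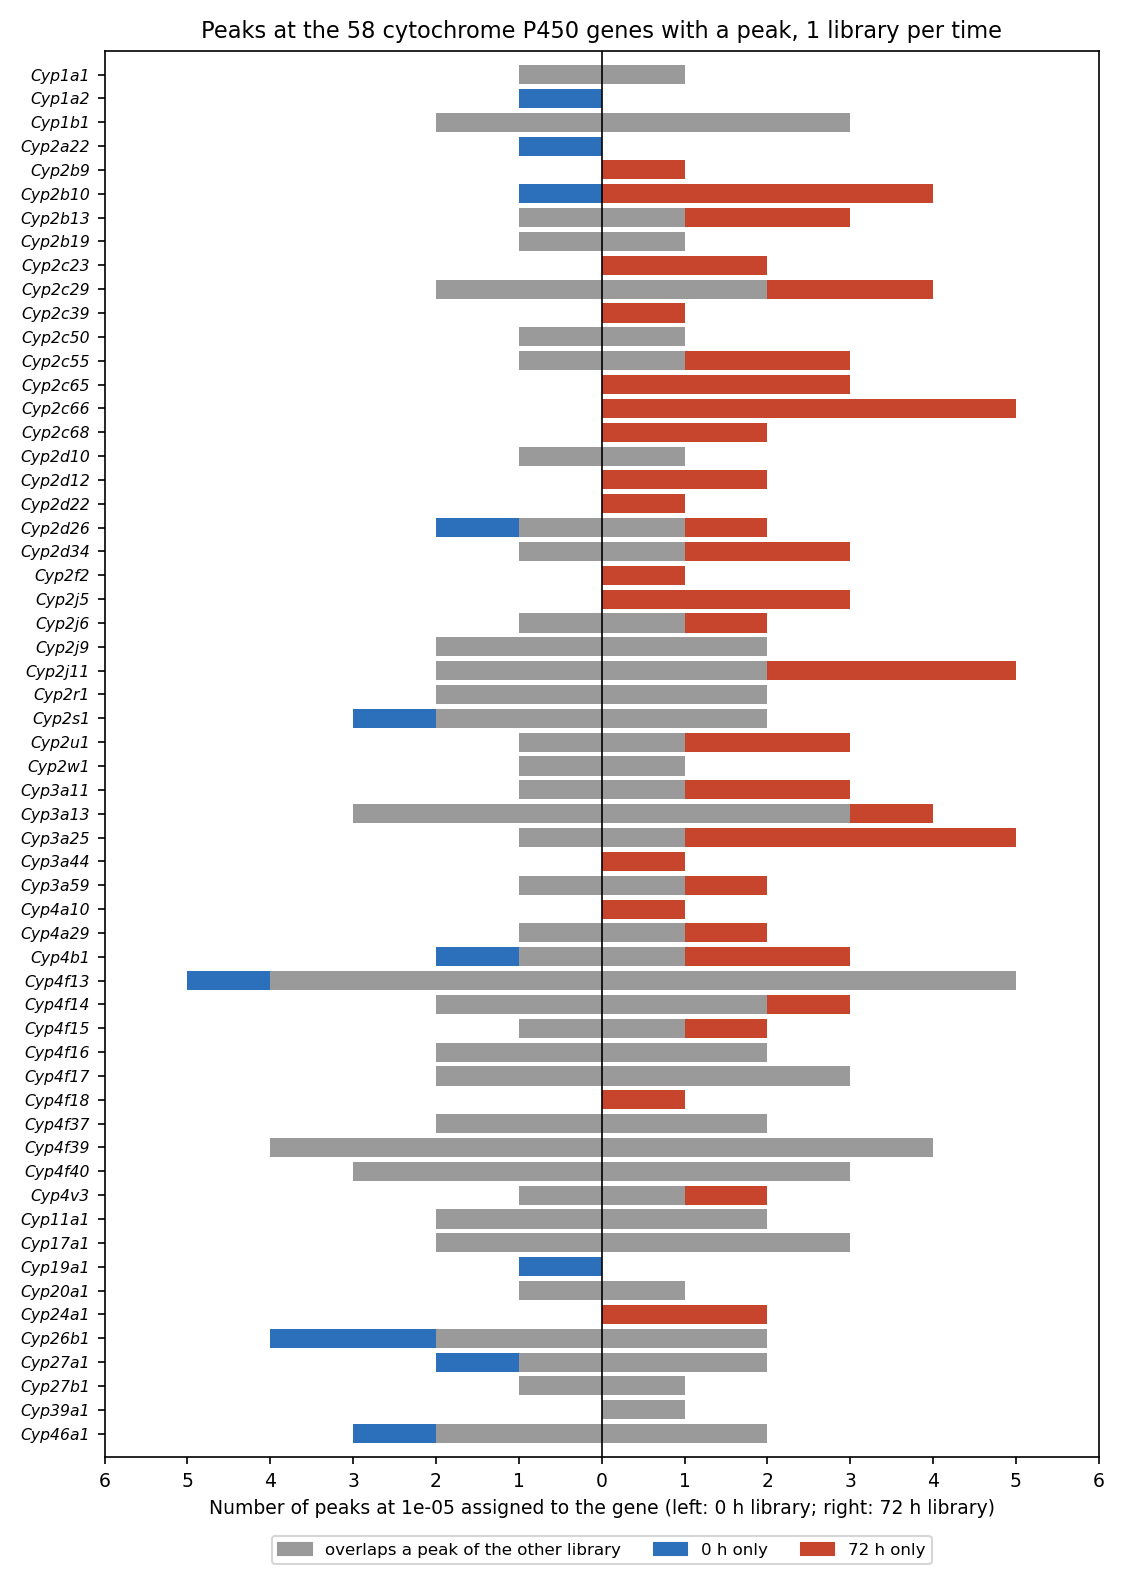
Number of peaks at 1e-05 (horizontal axis) assigned to each of the 58 cytochrome P450 genes with a peak, to the left for the 0 h library and to the right for the 72 h library; grey marks peaks that overlap one in the other library, blue 0 h only and red 72 h only. In the Cyp2b, Cyp2c, Cyp2d, Cyp2j and Cyp3a rows 46 of 66 peaks at 72 h are red, beside 29.0% of all assigned peaks. These subfamilies were picked out on the same counts, so their share is a description. For the 41 members outside these subfamilies and Cyp4f, 10 of 37 peaks at 72 h are red. The rows of Cyp2b19, Cyp2c50, Cyp2d10 and Cyp2j9 hold grey alone and the Cyp4f rows are mostly grey.

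Promoters are described first, since their sequences are at hand. RefSeq promoter windows of GRCm38.p6, which run from 250 bases before to 50 bases after a start site, were matched by symbol for 72 of the 92 genes. At 10 of the 72 (13.9%) a 72 h peak lay over the window and no 0 h peak did, beside 1.75% of all 17492 genes with a window. At 15 (20.8%) both libraries had a peak there, beside 50.5% of all genes. At 1, Cyp27a1, the 0 h library alone had a peak (1.39%, beside 3.62% of all genes), and 46 had none in either library. The 10 were Cyp2b10, Cyp2c29, Cyp2c38, Cyp2c55, Cyp2c65, Cyp2c66, Cyp2c68, Cyp3a11, Cyp3a25 and Cyp4f14. The peaks over Cyp2b10, Cyp2c55, Cyp2c65, Cyp2c66 and Cyp4f14 also passed 1e-10, and the other 5 passed 1e-05 alone. Peaks of the first kind are called strict below and those of the second lenient, and all positions are on mm10.

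The windows of those 5 genes are shown because they carry the strictest of these calls, those of Cyp2c68 and Cyp3a11 because they hold an HNF4 motif, and that of Cyp3a13, a Cyp3a gene whose promoter was open in both libraries, for contrast. Each is read on the gene's own strand, and capitals mark every match, on either strand, to the nuclear receptor hexamer AGGTCA, the HNF4 motif CAAAGTCCA, the xenobiotic response element core GCGTG, the GATA motif AGATAA, the SMAD palindrome GTCTAGAC, the GC-rich SMAD element GGCGCC, the CDX core CATAAA or the AP-1 motif TGANTCA. In this order they lie on chromosome 19 at 39006769 to 39007068 (Cyp2c55, plus strand), 39060756 to 39061055 (Cyp2c65, plus), 39113648 to 39113947 (Cyp2c66, plus) and 39741052 to 39741351 (Cyp2c68, minus), on chromosome 7 at 25897408 to 25897707 (Cyp2b10, plus), on chromosome 17 at 32917307 to 32917606 (Cyp4f14, minus), and on chromosome 5 at 145879805 to 145880104 (Cyp3a11, minus) and 137921570 to 137921869 (Cyp3a13, minus).
Cyp2c55: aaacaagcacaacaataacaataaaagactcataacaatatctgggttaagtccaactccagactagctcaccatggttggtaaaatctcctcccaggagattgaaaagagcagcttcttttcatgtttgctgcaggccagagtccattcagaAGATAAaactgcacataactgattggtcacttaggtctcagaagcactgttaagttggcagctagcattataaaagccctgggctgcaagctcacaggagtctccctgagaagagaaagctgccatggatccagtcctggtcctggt
Cyp2c65: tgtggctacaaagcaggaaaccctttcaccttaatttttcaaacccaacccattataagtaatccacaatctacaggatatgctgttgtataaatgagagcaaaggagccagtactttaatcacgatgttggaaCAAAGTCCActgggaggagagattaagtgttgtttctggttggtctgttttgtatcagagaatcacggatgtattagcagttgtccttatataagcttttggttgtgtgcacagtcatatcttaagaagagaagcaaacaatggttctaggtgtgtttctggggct
Cyp2c66: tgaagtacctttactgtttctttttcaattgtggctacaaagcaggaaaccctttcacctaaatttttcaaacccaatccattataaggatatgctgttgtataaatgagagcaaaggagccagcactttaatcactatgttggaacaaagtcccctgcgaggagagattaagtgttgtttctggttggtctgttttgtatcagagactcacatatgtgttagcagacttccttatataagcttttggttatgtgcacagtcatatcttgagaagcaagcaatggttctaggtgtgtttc
Cyp2c68: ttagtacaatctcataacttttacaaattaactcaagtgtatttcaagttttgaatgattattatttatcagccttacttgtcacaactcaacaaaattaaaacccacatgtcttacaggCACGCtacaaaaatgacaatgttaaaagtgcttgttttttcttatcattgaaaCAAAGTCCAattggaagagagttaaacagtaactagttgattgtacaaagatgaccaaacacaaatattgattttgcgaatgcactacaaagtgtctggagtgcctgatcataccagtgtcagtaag
Cyp2b10: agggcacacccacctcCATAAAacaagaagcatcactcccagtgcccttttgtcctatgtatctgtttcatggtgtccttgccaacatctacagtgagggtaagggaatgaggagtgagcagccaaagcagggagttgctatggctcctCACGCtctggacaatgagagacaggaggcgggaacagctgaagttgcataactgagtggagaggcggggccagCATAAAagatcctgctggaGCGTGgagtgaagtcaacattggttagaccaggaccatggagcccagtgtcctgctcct
Cyp4f14: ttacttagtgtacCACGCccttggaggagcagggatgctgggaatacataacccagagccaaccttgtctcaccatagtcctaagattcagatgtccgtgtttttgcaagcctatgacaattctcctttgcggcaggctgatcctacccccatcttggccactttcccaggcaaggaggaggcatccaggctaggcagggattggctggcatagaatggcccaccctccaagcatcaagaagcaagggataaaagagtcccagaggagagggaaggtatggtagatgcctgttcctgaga
Cyp3a11: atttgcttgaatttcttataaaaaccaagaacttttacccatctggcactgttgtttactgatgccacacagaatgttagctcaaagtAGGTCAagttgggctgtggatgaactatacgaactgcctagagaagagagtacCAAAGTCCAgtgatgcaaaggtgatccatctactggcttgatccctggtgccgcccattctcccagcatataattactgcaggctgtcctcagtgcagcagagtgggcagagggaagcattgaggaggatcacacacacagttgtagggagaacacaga
Cyp3a13: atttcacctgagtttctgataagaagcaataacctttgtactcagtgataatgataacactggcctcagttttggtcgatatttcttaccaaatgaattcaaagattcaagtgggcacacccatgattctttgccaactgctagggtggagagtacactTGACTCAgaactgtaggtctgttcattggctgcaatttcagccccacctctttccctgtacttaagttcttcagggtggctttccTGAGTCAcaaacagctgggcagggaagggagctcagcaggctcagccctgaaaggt

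The HNF4 motif CAAAGTCCA stood in 3 of the 10 windows open at 72 h only (Cyp2c65, Cyp2c68 and Cyp3a11) and in none of the 15 open in both libraries. Counted upstream from the start site, its first base was at -116 in Cyp2c65, -77 in Cyp2c68 and -109 in Cyp3a11. The motif is rare. It was found in 0.402% of the windows of the 17420 other genes, and in 10 (3.38%) of the 296 other genes whose window was open at 72 h only. It was also found in 6 of the 46 member windows with no peak, those of Cyp2c40, Cyp2c67, Cyp2c69, Cyp2c70, Cyp3a16 and Cyp8b1. A match describes letters and not a bound site.

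The nuclear receptor hexamer AGGTCA occurred in 3 of the 10 windows (Cyp2c29, Cyp3a11 and Cyp3a25) and in none of the 15 shared ones. It was also in 17 of the 46 member windows without a peak, and so in 27.8% of all member windows. Among other genes it was in 23.0% of the windows open at 72 h only and in 14.3% of all windows. The AP-1 motif TGANTCA was in none of the 10 and in 4 of the 15 shared windows, among them Cyp3a13 with 2 matches. It was in 7.01% of all windows, a rate at which none of 10 is unremarkable. Among other genes the order was reversed, with 8.78% of the windows open at 72 h only and 4.27% of those open in both. No member window held the SMAD palindrome GTCTAGAC, which is in 0.212% of all windows. The remaining motifs were spread as follows. GCGTG was in 3 of the 10 and 6 of the 15 (39.0% of all windows), and AGATAA in 2 of the 10 and 4 of the 15 (9.76%). GGCGCC was in none of the 10 and 2 of the 15 (15.7%), and CATAAA in 1 of the 10, none of the 15 and 8 of the 46 (10.0%).

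The 10 windows open at 72 h only held less G and C than the shared ones, and Cyp2c windows were low in G and C with or without a peak. Of the 10, 6 are Cyp2c windows, with a median of 36.8% GC (32.3% to 44.7%), and the 7 Cyp2c windows without a peak had a median of 36.0% (30.3% to 37.7%). The other 4 had a median of 49.5% (46.3% to 53.0%), and the 39 member windows outside Cyp2c without a peak 50.3% (39.7% to 62.3%). No Cyp2c window was open in both libraries. Over all 10, GC content ran from 32.3% to 53.0% with a median of 42.2%, and they held 0 to 4 CpG dinucleotides. The 15 member windows open in both libraries ran from 45.7% to 70.3% with a median of 54.3%, and held 1 to 31 CpGs with a median of 6. The 2 ranges overlap between 45.7% and 53.0%. In other genes the medians were 53.8% GC and 7 CpGs for windows open at 72 h only, and 62.0% and 23 for windows open in both. Among the shared member windows, those with 17 or more CpGs belong to Cyp20a1 (an orphan P450), Cyp2r1 (the main vitamin D hydroxylase of the liver), Cyp2s1 (an epithelial P450), Cyp46a1 (cholesterol hydroxylase) and Cyp4v3 (a fatty acid hydroxylase). Some of the 10 windows resemble each other through gene duplication. In a global alignment, Cyp2c65 and Cyp2c66 were identical at 77.8% of aligned positions and Cyp2c29 and Cyp2c38 at 70.8%. Pairs from different subfamilies gave lower values, such as 50.6% for Cyp2c65 and Cyp3a11 and 52.5% for Cyp2b10 and Cyp4f14. Cyp2c55 and Cyp2c68, of the same subfamily, were no more alike than these (51.8%). The 10 promoters are thus not all independent of each other.

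**Figure D2:**
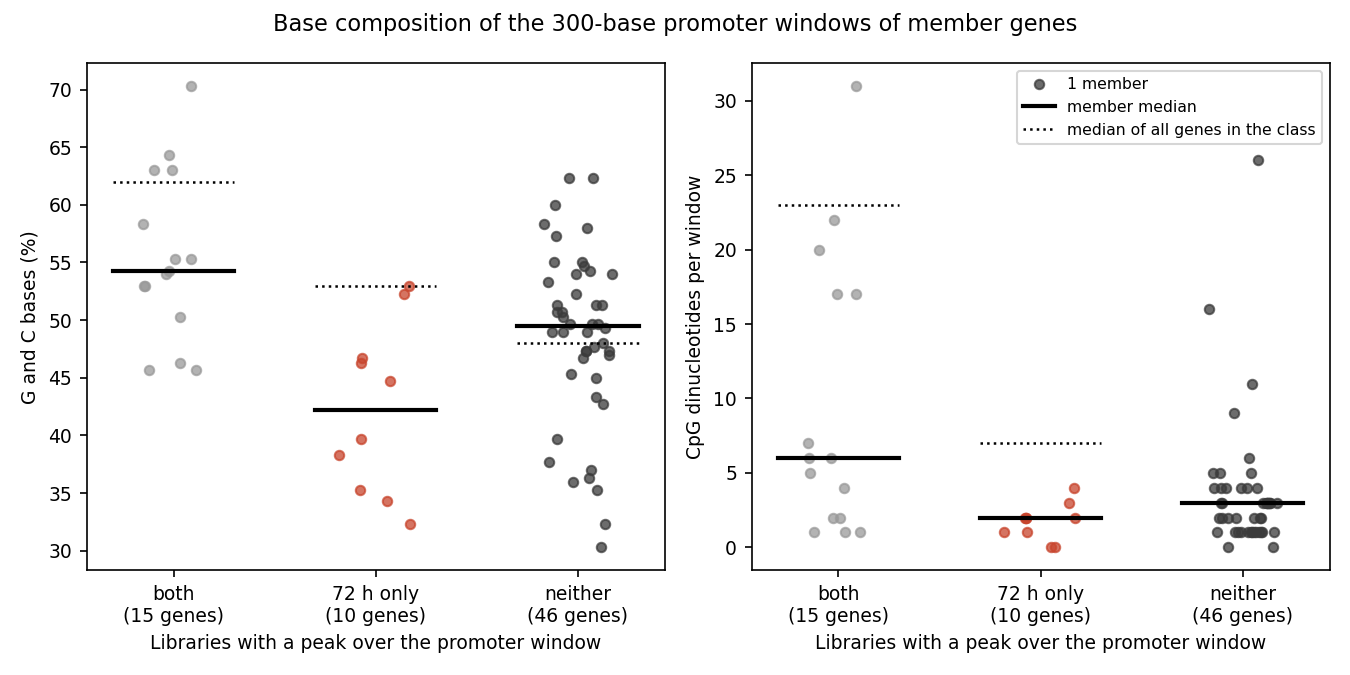
GC content in percent (left) and number of CpG dinucleotides (right) of the 300-base promoter windows of member genes, by the libraries with a peak over the window; each point is 1 gene, thick lines are member medians and dotted lines the medians of all genes of the class. The 10 windows open at 72 h only lie between 32.3% and 53.0% GC and hold at most 4 CpGs, the 46 without a peak have a median of 49.5% GC, and the single window open at 0 h only (Cyp27a1) is left out.

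Of the 59 peaks at 72 h only, 47 belonged to genes with a matched start site and were measured to the nearest one of their own gene. Of the 47, 9 (19.1%) were centred within 1 kb, 23 (48.9%) at 1 to 10 kb and 15 (31.9%) farther out. The 9 are peaks over promoter windows described above, so their share repeats the promoter result. Over all genes with a start site the same shares were 6.49%, 27.1% and 66.4%. The median distance was 6.83 kb for the members and 18.9 kb for all. Shared peaks showed the reverse: at 72 h, 36.7% of the members' shared peaks and 53.1% of all shared peaks were centred within 1 kb. The median length of the genes with a peak was 23.5 kb for members and 23.3 kb for all.

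Of the 48 members grouped here as enzymes of foreign compounds (families 1 and 3 and most of family 2), 29 had a peak. Of these 29, 20 had a peak at 72 h only and 5 had a peak at 0 h only, beside 39.8% and 29.7% of all genes with a peak. The 48 members had 26 peaks at 0 h and 62 at 72 h. Of the 62, 64.5% (51.3 to 76.3) were at 72 h only, beside 29.0% of all assigned peaks. The Cyp2c genes gave 17 of the group's 40 peaks at 72 h only. This subfamily oxidises drugs and converts arachidonic acid to epoxides and hydroxy acids. Its 15 members had 4 peaks at 0 h, all shared, and 21 at 72 h, of which 17 (81.0%, 58.1 to 94.6) were at 72 h only and 9 of these passed 1e-10.

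**Figure D3:**
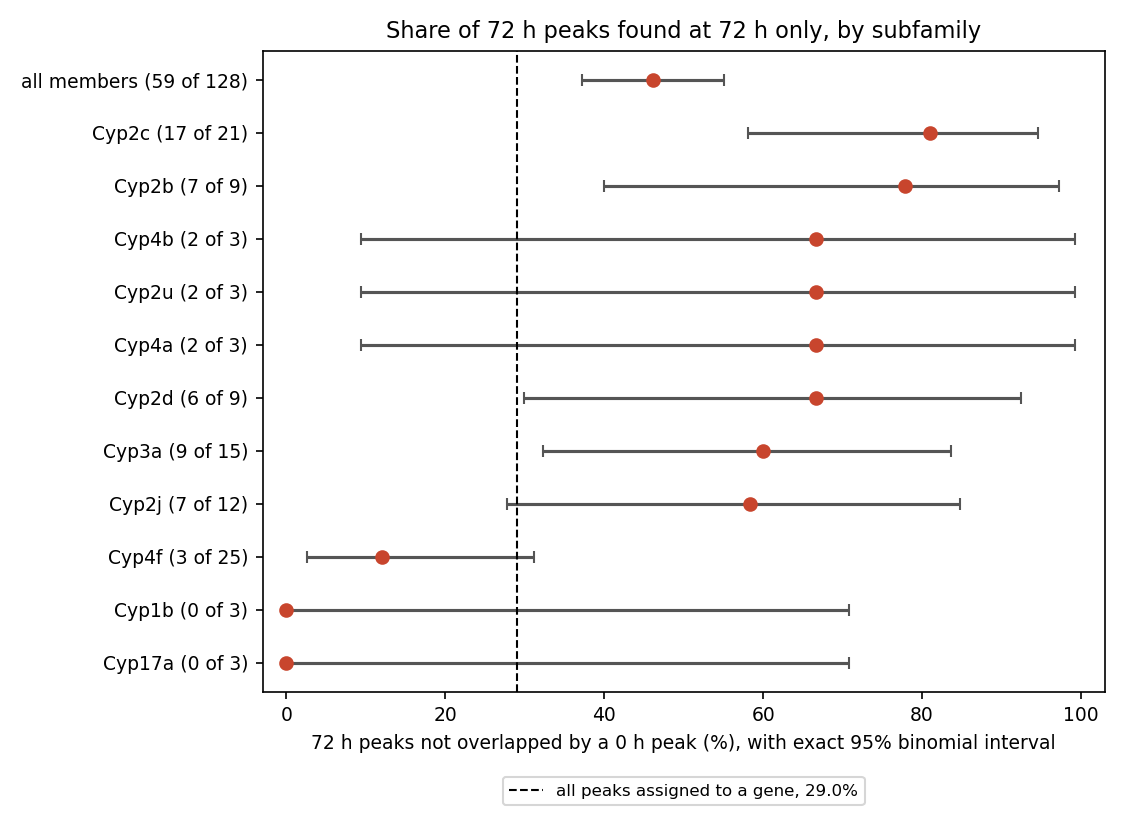
Share of 72 h peaks not overlapped by a 0 h peak (percent, horizontal axis) for each subfamily with at least 3 peaks at 72 h, with exact 95% binomial intervals for counting error; the dashed line is the 29.0% of all assigned peaks. Cyp2c (17 of 21) and Cyp2b (7 of 9) lie highest among subfamilies with over 3 peaks, and Cyp4f (3 of 25) lowest.

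Within the Cyp2c cluster on chromosome 19 the 72 h peaks gathered at 1 end. The cluster holds 14 of the 15 genes in 1180 kb, from 39006940 to 40187286, and 15 of its 19 assigned peaks at 72 h were at 72 h only. Cyp2c55, Cyp2c65 and Cyp2c66, the 3 genes at the low-coordinate end, held 10 of those 15. Among the 10, 2 peaks of Cyp2c65 overlap each other, as do 2 of Cyp2c66, and were counted singly. With overlapping peaks merged, the 59 peaks of all members at 72 h only are 57 sites. The farthest peak of Cyp2c66 lay 42.5 kb from the gene. Cyp2c66 was without a peak at 0 h and had 5 at 72 h. Its strict pair lay over the start site (39113526 to 39114126) and 5.16 kb upstream (39108437 to 39109037). Cyp2c65, likewise without a peak at 0 h, had 3 at 72 h, with a strict peak over the start site (39060670 to 39061270) and another 2.59 kb upstream (39058117 to 39058717). The same arrangement, a promoter peak with a peak a few kb upstream, was thus called at both of these neighbours.

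Cyp2c55, which encodes an arachidonic acid hydroxylase of the gut, differed in that its upstream site was already open. A strict peak centred 1.66 kb before its start site at 0 h (39005060 to 39005660) was matched at 72 h (39004877 to 39005477). The strict peak over its promoter (39006638 to 39007238) and another 8.10 kb upstream (38998621 to 38999221) were called at 72 h only. Cyp2c29 likewise had shared sites upstream, 27.4 and 22.9 kb before its start at 72 h, and gained calls at the promoter and at 39282681 to 39283281. Cyp2c68 had 2 lenient peaks at 72 h only. The peak assigned to Cyp2c39 lay inside its long gene model, at 39462930 to 39463530, and covers the promoter window of Cyp2c38, whose gene lies within that model. Cyp2c50 had 1 shared peak. Cyp2c37, Cyp2c38, Cyp2c40, Cyp2c54, Cyp2c67, Cyp2c69 and Cyp2c70 had no assigned peak in either library. Cyp2c23, an arachidonic acid epoxygenase gene outside the cluster, had 2 strict peaks at 72 h only, both inside the gene (44023153 to 44023753 and 44024694 to 44025294).

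**Figure D4:**
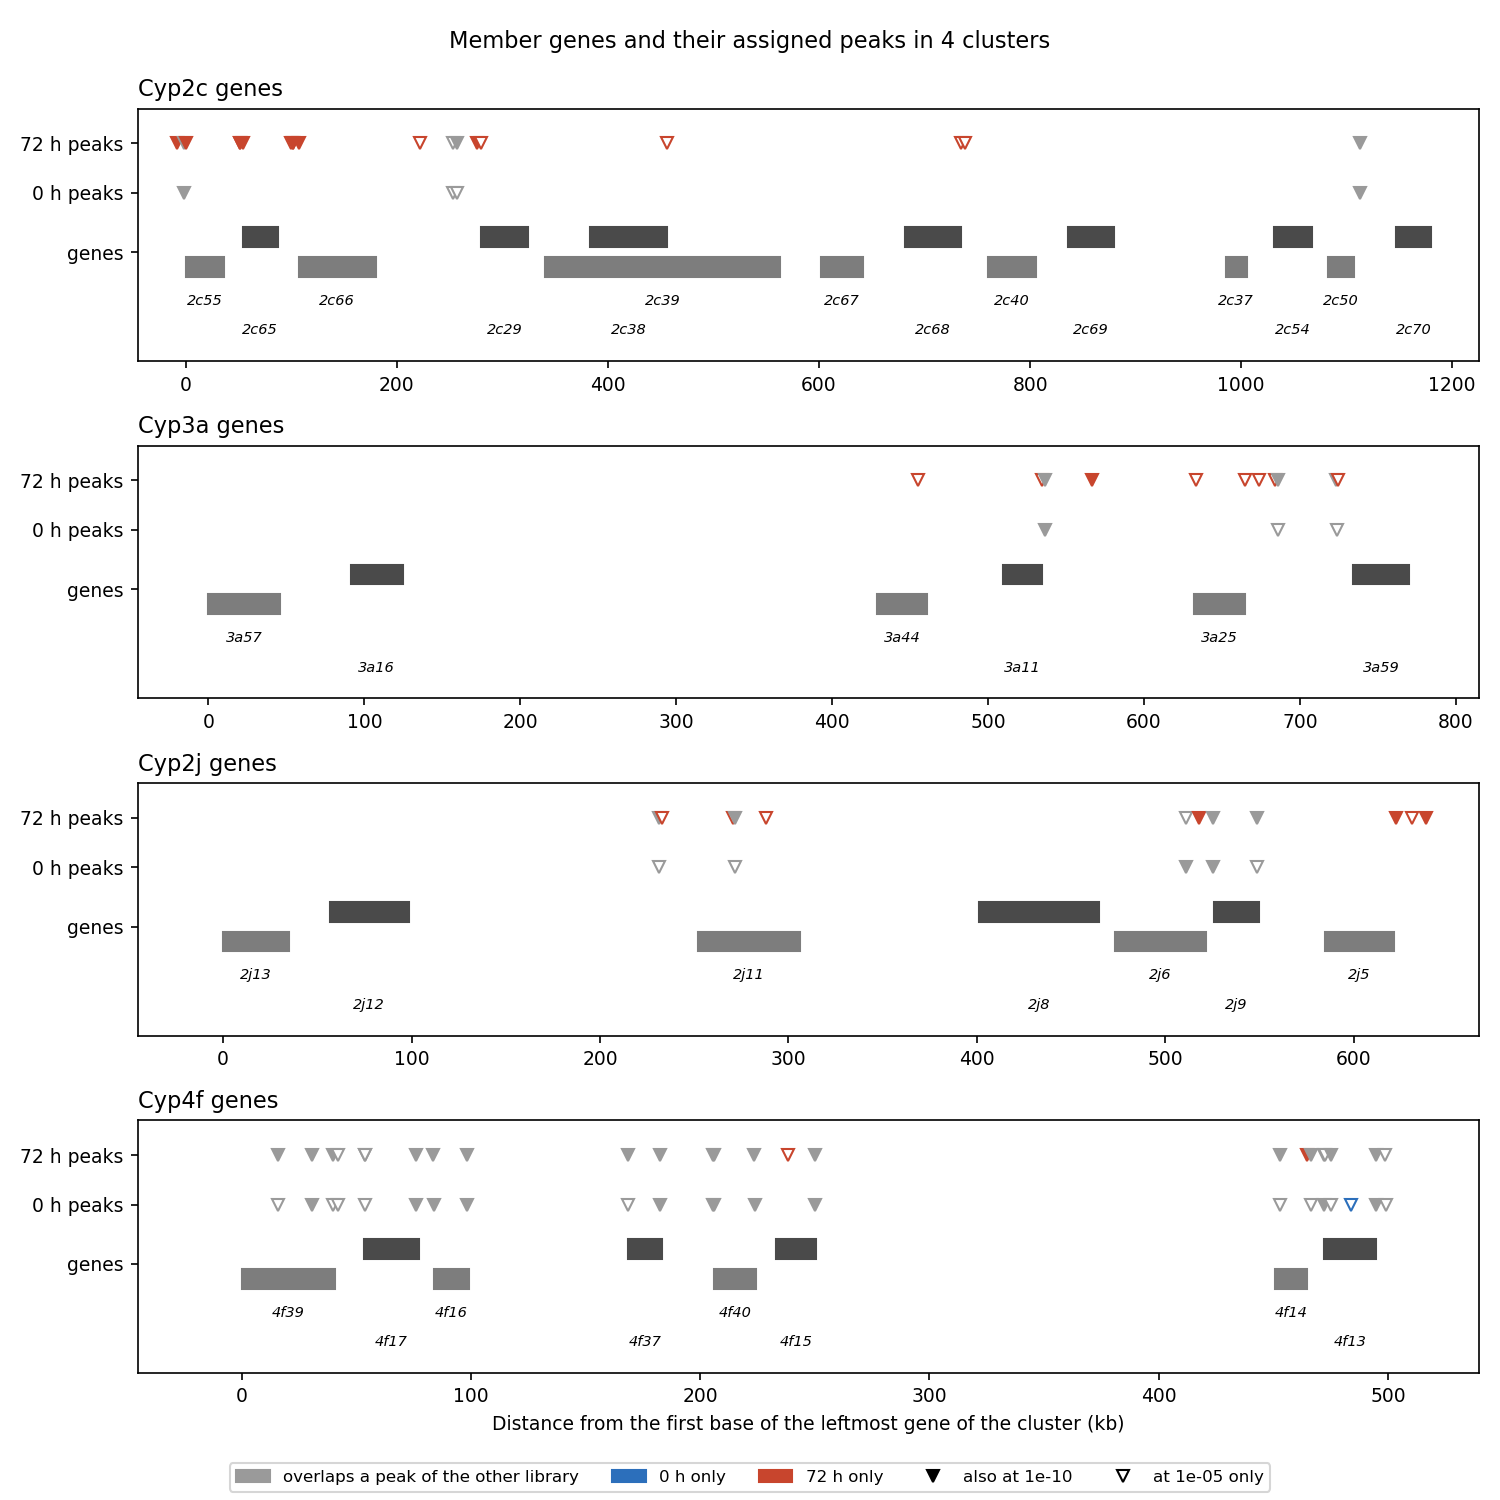
Member genes (bars) and the midpoints of their assigned peaks (triangles, upper row 72 h and lower row 0 h) in 4 clusters, against distance in kb from the first base of the leftmost gene; filled triangles also passed 1e-10, grey marks shared peaks, red 72 h only and blue 0 h only. Red marks gather at the left end of the Cyp2c cluster, and in the Cyp4f cluster nearly every 72 h peak has a grey partner at 0 h.

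The Cyp3a genes encode the main drug-oxidising P450s of liver and gut. They had 6 peaks at 0 h, all shared, and 15 at 72 h, of which 9 (60.0%, 32.3 to 83.7) were at 72 h only. Cyp3a13, a Cyp3a gene known from mouse intestine, stands apart from the cluster on chromosome 5. It had 3 shared peaks, 2 of them within 1 kb of its start site and strict in both libraries, and a strict peak at 72 h only 5.14 kb upstream (137926456 to 137927056). Cyp3a11, a target of the xenobiotic receptor PXR, had a strict shared peak 1.53 kb before its start (145881083 to 145881683 at 72 h). Its promoter peak (145879653 to 145880253, lenient) and a strict peak 32.1 kb upstream (145911664 to 145912264) were called at 72 h only.

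Cyp3a25 had 5 peaks at 72 h, 4 of them at 72 h only and all 4 lenient, and 1 shared peak 21.6 kb upstream. Cyp3a44 had 1 lenient peak at 72 h only and Cyp3a59 a shared peak with a lenient 72 h-only peak 76 bp from the nearest 0 h peak, the closest of all to being shared. Cyp3a16 and Cyp3a57 had none. The distal Cyp3a11 peak and the 4 of Cyp3a25 lie where the numbering of the 0 h peaks skips 1 number, so a 0 h peak not analysed here may lie among them. Such a skip was also found at the 2 Cyp24a1 peaks and the Cyp4f18 peak, and the 0 h numbers run on without a gap at the other 51 of the 59 peaks at 72 h only.

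On chromosome 7 the 13 members from Cyp2s1 to Cyp2t4 spread over 1356 kb and showed calls of both kinds. Of their 12 peaks at 72 h, 8 had no 0 h partner (66.7%, 34.9 to 90.1), and of their 7 at 0 h, 3 had no 72 h partner. The shares among all assigned peaks were 29.0% and 19.7%. Cyp2b10, the classical target of the receptor CAR and a P450 of the mouse small intestine, had 4 peaks at 72 h only. The strict one lay over the promoter (25897247 to 25897847) and the lenient ones 9.79 and 8.29 kb upstream and 22.0 kb downstream of the start. Its single 0 h peak (25878702 to 25879302, strict), 18.7 kb upstream, was at 0 h only. Cyp2b13 and Cyp2b9 each had a strict peak at 72 h only, 37.6 kb (26023577 to 26024177) and 29.9 kb (26143237 to 26143837) before their starts, and Cyp2b19 a shared peak. Cyp2s1, an epithelial P450 at the edge of the cluster, had 2 shared peaks, including its promoter, and a strict peak at 0 h only, 38.7 kb upstream (25854949 to 25855549). The 72 h numbering skips 1 number at the Cyp2b10 and Cyp2s1 peaks found at 0 h only. Of the 4 Cyp2a genes, which include nicotine and coumarin oxidases, only Cyp2a22 had a peak, a lenient one at 0 h only. Cyp2f2 had 1 lenient peak at 72 h only, and Cyp2b23, Cyp2g1 and Cyp2t4 had none.

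The Cyp2d genes on chromosome 15, relatives of the human drug-oxidising CYP2D6, had 4 peaks at 0 h and 9 at 72 h. Of the 9, 6 were at 72 h only (66.7%, 29.9 to 92.5, beside 29.0% of all assigned peaks), and 4 of these were strict. Cyp2d22 and Cyp2d12 had peaks at 72 h only and Cyp2d34 2 such peaks beside 1 shared. The strict peaks lay at 82379436 to 82380036 inside Cyp2d22, at 82586376 to 82586976, 27.3 kb outside Cyp2d12, and at 82620635 to 82621235 in Cyp2d34. Cyp2d26 had a promoter peak in both libraries, lenient at 0 h and strict at 72 h, flanked by a lenient 0 h-only peak on the gene side and a strict 72 h-only peak 2.38 kb upstream (82796328 to 82796928). Cyp2d10 had 1 strict shared peak, and Cyp2d9, Cyp2d11 and Cyp2d40 had none.

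Family 1, the enzymes induced by dioxin through the AHR receptor, had no peak at 72 h only. Cyp1a1 had 1 lenient peak in each library at the same place and Cyp1a2 1 lenient peak at 0 h only. Cyp1b1 had 2 peaks at 0 h and 3 at 72 h, all shared. Cyp2e1, the ethanol-oxidising P450 of the liver, had no peak, and Cyp2w1 had 1 shared peak, strict at 72 h alone.

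The 25 members grouped as enzymes of fatty acids (Cyp2j, Cyp2u1 and family 4) had 31 peaks at 0 h and 48 at 72 h, of which 35.4% (22.2 to 50.5) were at 72 h only, an interval that holds the 29.0% of all genes. Cyp2c, whose enzymes also act on arachidonic acid, was counted with the enzymes of foreign compounds, with 17 of its 21 peaks at 72 h only. The shares of both groups therefore depend on where Cyp2c is placed. Differences between the groups or their subfamilies were not tested. In the Cyp2j cluster on chromosome 4, whose enzymes make epoxides of arachidonic acid, 7 of 12 peaks at 72 h were at 72 h only (58.3%, 27.7 to 84.8). This interval also holds the 29.0% of all assigned peaks. None of the 5 Cyp2j peaks at 0 h was at 0 h only, where 19.7% of all assigned peaks were. Cyp2j5 was without a peak at 0 h and had 3 at 72 h, with strict ones 1.17 and 17.0 kb before its start (96664992 to 96665592 and 96680840 to 96681440). Cyp2j6, an intestinal form, kept its promoter peak, strict at 0 h and lenient at 72 h, and had a strict 72 h-only peak 6.83 kb before that start site (96560183 to 96560783). Cyp2j11 had 3 lenient peaks at 72 h only beside 2 shared, the nearest 189 bp from a 0 h peak. Cyp2j9 had 2 shared peaks, and Cyp2j8, Cyp2j12 and Cyp2j13 none.

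The Cyp4f genes, whose enzymes hydroxylate leukotrienes, long-chain fatty acids and vitamin E, mostly had peaks in both libraries. All 9 had a peak, beside 69.7% of all protein-coding genes, and 22 of 25 peaks at 72 h and 20 of 21 at 0 h were shared. The share at 72 h only was 12.0% (2.55 to 31.2), an interval that holds the 29.0% of all assigned peaks. At 0 h, 1 of 21 was at 0 h only, where 19.7% of all assigned peaks were. Cyp4f39 had 4 shared peaks in each library, Cyp4f40 3 in each, and Cyp4f16 and Cyp4f37 2 in each. The threshold passed differed between the libraries: 11 of the 21 peaks at 0 h and 19 of the 25 at 72 h passed 1e-10. In the cluster 1 strict peak was found in 1 library only, at Cyp4f14, a leukotriene B4 hydroxylase gene. This promoter peak (32917133 to 32917733) was at 72 h only although shared peaks flanked it 11.5 kb downstream and 1.95 kb upstream of the start at 72 h. Those 2 flanking sites were lenient at 0 h and strict at 72 h. Cyp4f15 had 1 lenient peak at 72 h only, Cyp4f13 1 lenient peak at 0 h only, and Cyp4f18, on chromosome 8, 1 lenient peak at 72 h only.

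The other fatty acid hydroxylase genes had few peaks. Cyp4b1, on chromosome 4, encodes an enzyme that activates several plant and lung toxins. It was the 1 gene with strict peaks of both kinds beside Cyp2b10. A 0 h-only peak 9.77 kb upstream (115657186 to 115657786) and a 72 h-only peak 11.6 kb upstream (115658976 to 115659576) lay 1189 bp apart, and a further strict 72 h-only peak lay inside the gene (115643206 to 115643806). Its promoter peak was shared, strict at 0 h and lenient at 72 h. Of the 5 Cyp4a genes, targets of PPARA, Cyp4a29 and Cyp4a10 each had 1 lenient peak at 72 h only, and Cyp4a14, Cyp4a31 and Cyp4a32 had none. Cyp4x1 had none. Cyp2u1 and Cyp4v3 had shared peaks at the gene and strict 72 h-only peaks inside it, at 131292213 to 131292813 on chromosome 3 and 45329204 to 45329804 on chromosome 8.

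Peaks at 72 h only were called at 1 of the 3 genes grouped as vitamin D enzymes, beside 39.8% of all genes with a peak. Cyp27a1 and the Cyp3a genes, which also act on vitamin D, were counted in other groups, and Cyp27a1 had a promoter peak at 0 h only. Cyp24a1, the hydroxylase that inactivates vitamin D, had no peak at 0 h and 2 at 72 h, centred 25.5 and 23.0 kb outside the gene on chromosome 2, the first strict (170457137 to 170457737). At both, 1 number is skipped at 0 h, as given above. Cyp2r1 and Cyp27b1, which act in making the active hormone, had shared peaks alone, 2 and 1 in each library. Of the 5 peaks of the group at 72 h, 2 (40.0%, 5.27 to 85.3) were at 72 h only, an interval that holds the 29.0% of all assigned peaks. With 5 peaks in all at 72 h, a difference between these enzymes was not tested.

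Retinoic acid is cleared by the Cyp26 enzymes. Of their 3 genes only Cyp26b1 had peaks, some of them at 0 h only and none at 72 h only. Cyp26b1 had 4 peaks at 0 h, 3 of them strict, and 2 at 72 h, 1 of them strict. A strict peak inside the gene (84583261 to 84583861 on chromosome 6) and a lenient one (84588747 to 84589347) were at 0 h only. The site 3.34 kb inside from the start was strict at 0 h and lenient at 72 h. Cyp26a1 and Cyp26c1 had no peak in either library. Over all genes with a peak, 29.7% had a peak at 0 h only. With 2 peaks at 72 h, the interval of the share at 72 h only (0 to 84.2%) holds the 29.0% of all assigned peaks. A difference of this gene from others was not tested.

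No bile acid, sterol or steroid hormone gene had a peak at 72 h only. The bile acid and sterol group and the steroid hormone group had 5 peaks each at 72 h. For each, the interval of 0 to 52.2% holds the 29.0% of all assigned peaks. Shared sites of Cyp46a1, Cyp11a1 and Cyp17a1 were strict at 72 h alone. Cyp27a1, a sterol hydroxylase of bile acid synthesis, had a lenient promoter peak at 0 h only (74712892 to 74713492 on chromosome 1) and a shared site in the gene. Cyp46a1 had 2 shared peaks and a lenient 0 h-only peak 1.16 kb upstream. Cyp7a1, the rate-limiting enzyme of bile acid synthesis, and Cyp7b1 and Cyp8b1 had no peak. Of the steroid hormone enzymes, Cyp11a1 and Cyp17a1 had shared peaks alone, Cyp19a1 (aromatase) 1 lenient peak at 0 h only, and Cyp11b1, Cyp11b2 and Cyp21a1 none.

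Sites open in both libraries moved toward the strict threshold at 72 h. Of the 63 shared peaks of members at 0 h, 32 (50.8%, 37.9 to 63.6) passed 1e-10, and of the 69 at 72 h, 51 (73.9%, 61.9 to 83.7) did. Among all shared peaks the shares were 66.4% and 71.8%. With overlapping peaks merged, members had 59 sites occupied in both libraries. At 21 (35.6%) the site was strict at 72 h alone, at 4 (6.78%) at 0 h alone, at 26 in both and at 8 in neither. Over all assigned sites of this kind, 13.6% were strict at 72 h alone and 8.43% at 0 h alone. The 4 were sites of Cyp26b1, Cyp2b13, Cyp2j6 and Cyp4b1. The 21 included 7 in the Cyp4f cluster, at Cyp4f13, Cyp4f14, Cyp4f17, Cyp4f37 and Cyp4f39. The others were sites of Cyp2c29, Cyp2d26, Cyp2d34, Cyp2j9, Cyp2j11, Cyp2s1, Cyp2w1, Cyp3a13, Cyp3a25, Cyp3a59, Cyp11a1, Cyp17a1 and Cyp46a1.

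The strict lists were also counted on their own. At 1e-10, 27 of 78 member peaks at 72 h had no 0 h peak at 1e-05 (34.6%, 24.2 to 46.2, beside 16.9% of all assigned strict peaks), at 21 genes. At 0 h, 4 of 36 had no 72 h peak (11.1%, 3.11 to 26.1, beside 5.94% of all). The 0 h share of the members thus lay above that of all genes at 1e-10 and below it at 1e-05, with the value for all genes inside the interval at both thresholds. Of all genes with a peak, 18.6% had such a strict peak at 72 h and 6.66% at 0 h. The 4 genes at 0 h were Cyp26b1, Cyp2b10, Cyp2s1 and Cyp4b1.

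Genes that work with the P450s were counted in 5 lists. Over all genes, as above, 29.0% of peaks at 72 h were at 72 h only, and 39.8% of genes with a peak had one at 72 h only and 29.7% one at 0 h only. All 7 electron donor genes had peaks, 18 at 0 h and 31 at 72 h, with 14 (45.2%, 27.3 to 64.0) at 72 h only and none at 0 h only. Por, the reductase that supplies electrons to microsomal P450s, went from 5 peaks to 10, 5 of them at 72 h only, and Cyb5a, cytochrome b5, from 4 to 8 with 4 at 72 h only. Of 20 regulators, 11 had a peak at 72 h only and 10 a peak at 0 h only. Peaks were more numerous at 72 h at 7 of them, less numerous at 4 and equal at 9. Nr1i2, which encodes PXR, had 2 peaks at 0 h and 5 at 72 h with 2 at 72 h only, Hnf4g had 5 and 12 with 6, and Ahr 3 shared peaks in each library. Vdr, the vitamin D receptor gene, had 9 and 6, with 3 at 0 h only, and Nr1h3, which encodes the oxysterol receptor LXR alpha, had 4 and 2, all shared.

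A list of 19 other enzymes of the first step of drug metabolism holds oxidising enzymes and hydrolases, among them the Ces and Ephx genes. Of the 19, 14 had a peak at 72 h only and 2 a peak at 0 h only, with 57.8% (44.8 to 70.1) of 64 peaks at 72 h only. Aldh1a1, a retinal dehydrogenase, led with 8 of 10. Of 27 conjugation genes, 19 had a peak at 72 h only and 3 a peak at 0 h only, with 45.9% (33.1 to 59.2) of 61. Sult1c2, a sulfotransferase, went from 0 peaks to 3. Of 7 export pumps, 5 had a peak at 72 h only and 4 a peak at 0 h only, with 33.3% (18.6 to 51.0) of 36. The members' 46.1% lies within the interval of each of the 5 lists (26.9 to 46.6 for the regulators' 36.4%). The 29.0% of all genes also lies within those of the electron donors, the regulators and the export pumps, and no difference between lists was tested.

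The tissue was checked with marker genes. All 12 markers of intestinal epithelium had peaks in both libraries, 73 at 0 h and 83 at 72 h, and 22.9% (14.4 to 33.4) of the latter were at 72 h only. Of markers of other cells, peaks were found at 7 of 9 for hepatocytes, 5 of 7 for fibroblasts, 2 of 6 for immune cells and 4 of 5 for endothelium. Over all protein-coding genes 69.7% had a peak, so having a peak does not tell these cell types apart. The 4 lists had 13, 8, 2 and 10 peaks at 72 h and 5, 8, 2 and 9 at 0 h. In the same order 7, 3, 1 and 7 of the 72 h peaks were at 72 h only, beside 29.0% of all assigned peaks. Alb and Serpina1a had no peak in either library. The part of other cells in the P450 peaks was not tested.

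Near the limits of the rule, the farthest assigned peaks lay 45.4 kb from Cyp26b1 in each library and the closest peak left out, at 72 h, 50.1 kb from Cyp2c66. The smallest overlap that counted as shared was 86 bp at 72 h, at Cyp27a1, and 356 bp at 0 h, at Cyp2c29. The smallest gaps of peaks in 1 library only were 76 bp at 72 h (Cyp3a59) and 274 bp at 0 h (Cyp2d26), while the median gap was 29.9 kb at 72 h and 7.14 kb at 0 h.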

How the data were processed

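ATAC-seq libraries from 30000 cells each, 1 per time point, were compared between 0 h and 72 h. The authors deposited peak lists with 4 columns (chromosome, start, end, name) and no other values, so no unit of signal was available. Per the submitters' processing notes, reads were processed on mm10 with MACS2 2.2.7.1, Bowtie2 2.4.1, bedtools 2.26.0, cutadapt 1.9.1, Picard 2.18.27, SAMtools 1.3.1 and deepTools 3.5.4. How Tn5 cuts were shifted and duplicates handled is not given in the sources used here. Peaks were called per library at 1e-05 (35857 at 0 h, 41343 at 72 h) and 1e-10 (19910 and 25040, called strict here; a peak at 1e-05 alone is called lenient), and nearly all span 601 bp. Peak numbers that are skipped in a list mark rows not analysed here.

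Midpoints were assigned to the protein-coding gene (RefSeq, GRCm38.p6, the assembly of mm10) that holds them or lies nearest within 50 kb. A peak was shared if at least 1 bp overlapped a 1e-05 peak of the other library. Members up to 500 kb apart formed a cluster. Coordinates are 1-based. Distances from start sites use the strand of the RefSeq promoter table, which was matched for 72 members and not for Cyp2c23, Cyp2c54, Cyp2d12, Cyp2d22, Cyp2d34, Cyp2u1, Cyp4a10, Cyp4a14, Cyp4a31, Cyp4f17, Cyp4x1, Cyp7a1, Cyp7b1, Cyp11b1, Cyp11b2, Cyp17a1, Cyp21a1, Cyp24a1, Cyp39a1 and Cyp2g1. For a gene with several windows, the window most covered by a peak was used. Shares carry exact Clopper-Pearson 95% intervals. No test across samples was possible with 1 library a group. By the rule for named genes, those with a strict peak in 1 library only are given with its position and the others by counts. Positions of other peaks (shared sites, and lenient ones of Cyp2c39, Cyp3a11, Cyp26b1 and Cyp27a1) were added after their values were seen. The lists that the authors deposited as enriched hold nearly the same peaks as the strict ones in 1 library only (3920 against 3921 assigned peaks at 72 h, 1114 against 1112 at 0 h) and add no separate evidence. The members and lists were chosen with earlier results of these data known. Assignment and overlap were tested on simulated data. The tools were Biopython 1.88, SciPy 1.17.1, matplotlib 3.10.9, Python 3.11.15, pandas 2.3.3 and numpy 2.4.6.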

Additional observations from a re-analysis of the deposited data

How the results depend on the processing

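The direction, a larger number of 72 h-only than of 0 h-only peaks, held under all 6 alternatives. All assigned peaks had the same direction (10943 against 6485), so its persistence says nothing particular to the members. Shares of all genes were counted again for 1e-10 alone, where 16.9% of strict 72 h peaks were at 72 h only. Under the other alternatives the contrast with all genes was not checked. With 1e-10 peaks, 27 genes had a 0 h peak, 0 h-only peaks fell to 4 in number and 72 h-only peaks to 27, which was 34.6% of the strict 72 h peaks. Counting every gene within 50 kb gave 29 0 h-only and 94 72 h-only peaks. A window of 10 kb, an overlap of most of a peak, a 1 kb gap and the nearest gene end left all counts within a factor of 1.5 of the main ones, and the share at 72 h only between 42.2% and 46.9%. The 10 promoters open at 72 h only were 5 with 1e-10 peaks, and 10 both where a peak had to cover 150 bp of the window and where no 0 h peak lay within 1 kb, alternatives chosen after the data were seen. No paired analysis was possible because each time point is 1 library. The depth is unknown, and why more peaks were called at 72 h was not tested.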

Other observations

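The 7 P450 symbols outside the naming rule are protein-coding and were counted separately. Cyp51, the lanosterol demethylase of cholesterol synthesis, had 1 strict shared peak in each library. Cyp4a12a had 2 peaks at 0 h and 3 at 72 h, with 1 strict peak at 72 h only. Cyp3a41b had 1 strict shared peak, Cyp3a41a 1 lenient peak at 0 h only, and Cyp2ab1, Cyp4a12b and Cyp4a30b had none.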
